A study of Mus musculus with 185 samples.

Results

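The genes described here are the receptors through which hormones and neuropeptides of appetite act on the brain. They are the 10 genes Lepr, Ghsr, Glp1r, Gipr, Mc3r, Mc4r, Npy1r, Npy2r, Npy5r and Calcr, taken by name from the 57010 genes of the count matrix. All 10 passed the filter on low counts in every comparison. The mice were male C57BL/6 J, an inbred strain, 8 weeks old, and the paper names no transgene or deletion in them. In the 16 h study, pair-housed mice were kept on chow, fasted or moved to HFD (D12331), 6 mice in each group. In the 24 h study, mice housed singly after acclimation were kept on chow (9 mice) or fasted (10 mice). Hypothalamus, hippocampus, superior colliculus and inferior colliculus were taken in both studies, with prefrontal cortex at 16 h and zona incerta at 24 h.

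Leptin from fat reports on stored energy and signals through Lepr by way of JAK2 and STAT3, while ghrelin from the stomach drives feeding through Ghsr. In the hypothalamus, neurons that make AgRP and NPY promote feeding and neurons that make POMC restrain it, and these peptides meet at the melanocortin receptors Mc3r and Mc4r and the NPY receptors Npy1r, Npy2r and Npy5r. GLP-1, GIP and amylin, hormones of the gut and the pancreatic islet, curb food intake through Glp1r, Gipr and a complex built on Calcr.

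The count matrix holds 5 columns for each of 37 mice. Its headings name the mouse of a column but not its brain region, so no column was assigned to a region. Levels are given as CPM, counts of a gene per 1000000 counts, of the sum of the 5 columns of a mouse, whose totals ran from 57962237 to 161577364 counts. Of 185 columns, 158 held at least 1000000 counts and at least 16000 genes in a draw of 500000, and columns are compared over these alone. The labels mark the hypothalamus library of 29 mice as ok and that of the other 8 as failing in alignment or principal components. The summed CPM of 10 transcription factors of the hypothalamus (such as Nkx2-1, Sim1 and Otp) was 18.9 to 73.1 in the 29 mice and 0.623 to 13.0 in the 8, so the label and these markers separated the same mice. The 8 mice comprise 3 on chow and 3 fasted at 24 h, and 1 fasted and 1 on HFD at 16 h. Counting all regions, up to 2 libraries per mouse failed in alignment at 24 h and up to 1 at 16 h. At 24 h nearly all of these came from a block low in RNA, sequenced on a separate flowcell. The superior colliculus failed there in more fasted than chow mice. The paper states that the superior colliculus samples of chow mouse 1423 and fasted mouse 1454 were exchanged in handling and that their labels were corrected. Whether the columns of counts carry this correction was not tested. The main fits kept these mice, and an alternative without mice 1423, 1454 and 1455 called 0 of the 10 receptors. All columns entered the sums, so the sums were not even mixtures of 5 sound regions. In a sum over tissue pieces, fewer cells of a type and less RNA per cell cannot be told apart.

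Per length of exon, the receptors of NPY led the order of levels. The length is that of all annotated exons of a gene together, from 2623 bases for Mc3r (1 transcript) to 11140 for Lepr (11 transcripts). It need not be the length of the transcripts expressed here, and the order depends on it. Over the 15 chow mice of both studies, the median level was 2.74 CPM per kb for Npy2r, an inhibitory receptor that often sits on the endings of NPY neurons. It was 2.39 for Npy1r, the receptor most tied to the feeding action of NPY, 1.61 for Calcr and 1.44 for Npy5r. Glp1r followed at 1.28, Lepr at 0.875, Mc4r at 0.776 and Mc3r at 0.725 CPM per kb. The lowest medians were 0.479 for Gipr and 0.397 for Ghsr. Neighbours in this order overlapped widely. Npy2r exceeded Npy1r in 10 of 15 mice, Calcr exceeded Npy5r in 8, Mc4r exceeded Mc3r in 7 and Gipr exceeded Ghsr in 8. The clearest steps were Npy1r above Calcr in 14 of 15 mice and Mc3r above Gipr in 13, the exceptions being mice 1422 and 1451, whose hypothalamus library was not ok. Within studies the order was the same but for Mc3r, which stood above Mc4r at 16 h (0.928 against 0.854 CPM per kb) and below it at 24 h (0.619 against 0.774), where 3 of the 9 chow mice lacked a sound hypothalamus library.

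The receptors differed in how far they were restricted to 1 column of a mouse. The highest column of Mc3r was also the highest column in the hypothalamus factors in 29 of the 29 mice whose hypothalamus library was ok. The same column was shared in 28 of 29 mice for Calcr, 28 for Ghsr and 27 for Glp1r. It was shared in 16 mice for Lepr, 11 for Npy2r and 6 for Mc4r. Gipr shared it in 3 mice, Npy5r in 2 and Npy1r in 1. The highest column held a median of 95.3% of the summed column CPM for Calcr (50.4 to 99.5% over 29 mice). The same median was 78.2% for Mc3r, 76.2% for Ghsr and 65.1% for Glp1r. For Gipr it was 29.2%, the most even of the receptors, with a median of only 1.09 times the level of the next column.

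**Figure D1:**
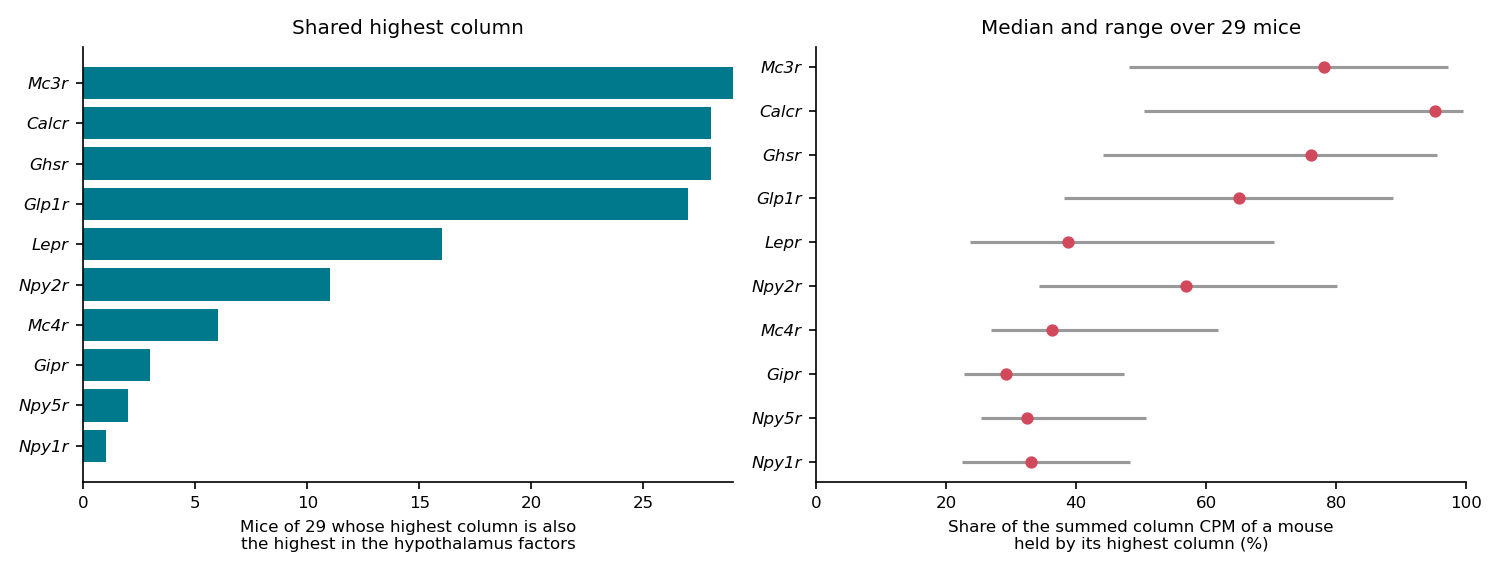
Left, the number of mice, of 29 with the hypothalamus library labelled ok, in which the highest column of a receptor was also the highest in the summed hypothalamus factors. Right, the share (%) of a mouse's summed column CPM held by its highest column, with the median as a point and the range over the 29 mice as a line. Calcr, Mc3r, Ghsr and Glp1r stood in 27 to 29 mice on the left, and Npy1r and Npy5r in 1 and 2.

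The promoters of Ghsr, Mc3r and Calcr are shown because these 3 genes peaked in the column of the hypothalamus factors in at least 28 of 29 mice. Each sequence is the 250 bases before the outermost start annotated in GENCODE vM39, read 5′ to 3′ on the strand of the gene from GRCm39. Capitals mark E-boxes (CANNTG) and, in Calcr, a short core of the cAMP response element (TGACG), searched on both strands with no overlap among the matches. The windows lie at chr3:27425106-27425355 (plus strand) for Ghsr, chr2:172090162-172090411 (plus strand) for Mc3r and chr6:3764715-3764964 (minus strand) for Calcr. An antisense long noncoding RNA, Gm33576, overlaps the Calcr gene, and whether it reaches the window was not examined.
Ghsr: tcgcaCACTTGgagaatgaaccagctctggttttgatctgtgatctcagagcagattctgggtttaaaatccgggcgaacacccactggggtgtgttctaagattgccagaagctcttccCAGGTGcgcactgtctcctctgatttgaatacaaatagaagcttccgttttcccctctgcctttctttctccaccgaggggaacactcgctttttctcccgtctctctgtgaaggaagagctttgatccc
Mc3r: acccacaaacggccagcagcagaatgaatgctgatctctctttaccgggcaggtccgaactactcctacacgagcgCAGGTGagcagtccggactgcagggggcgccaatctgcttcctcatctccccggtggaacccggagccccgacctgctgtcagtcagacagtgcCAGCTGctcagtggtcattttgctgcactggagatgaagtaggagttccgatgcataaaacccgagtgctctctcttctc
Calcr: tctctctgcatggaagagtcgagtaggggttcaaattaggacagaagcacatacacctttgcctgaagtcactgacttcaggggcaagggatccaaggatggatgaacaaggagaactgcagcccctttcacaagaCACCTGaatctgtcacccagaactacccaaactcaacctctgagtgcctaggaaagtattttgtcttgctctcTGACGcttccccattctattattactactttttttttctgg
Ghsr held 2 E-boxes, Mc3r 2 and Calcr 1. E-boxes occur in 66.5% of 21664 promoters of protein-coding genes of the same length and TGACG in 16.3%, so matches of this kind are common. TATAAA (12.5% of promoters), the FoxO motif GTAAACA (2.97%) and the STAT motif TTCNNNGAA (7.84%) were not among these letters.

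In the tests across all genes, 0 of the 10 receptors passed an adjusted p of 0.05 for any diet comparison when all mice were used. At 24 h, 11.4% of 29011 genes tested passed between fasted and chow mice. At 16 h the share of 29746 genes was 0.0% for fasted against chow, 0.0% for HFD against chow and 0.219% for fasted against HFD. DESeq2 also called 0 of the 10 in each comparison. The receptors at an unadjusted p under 0.05 were 0 at 24 h and 1 at 16 h, Npy1r on HFD. In sums per cage at 16 h they were 0 for fasted against chow, 3 for HFD against chow and 1 for fasted against HFD. Of 32758 genes tested by cage, 2080, 2912 and 2881 had such a p, and 0 receptors were called. The median log2 fold change of the 10 receptors at 24 h was 0.03, beside -0.004 for all genes tested. The difference between the fasting effects of both studies was called for 0 of the 10 receptors and for 1.70% of 30849 genes.

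**Figure D2:**
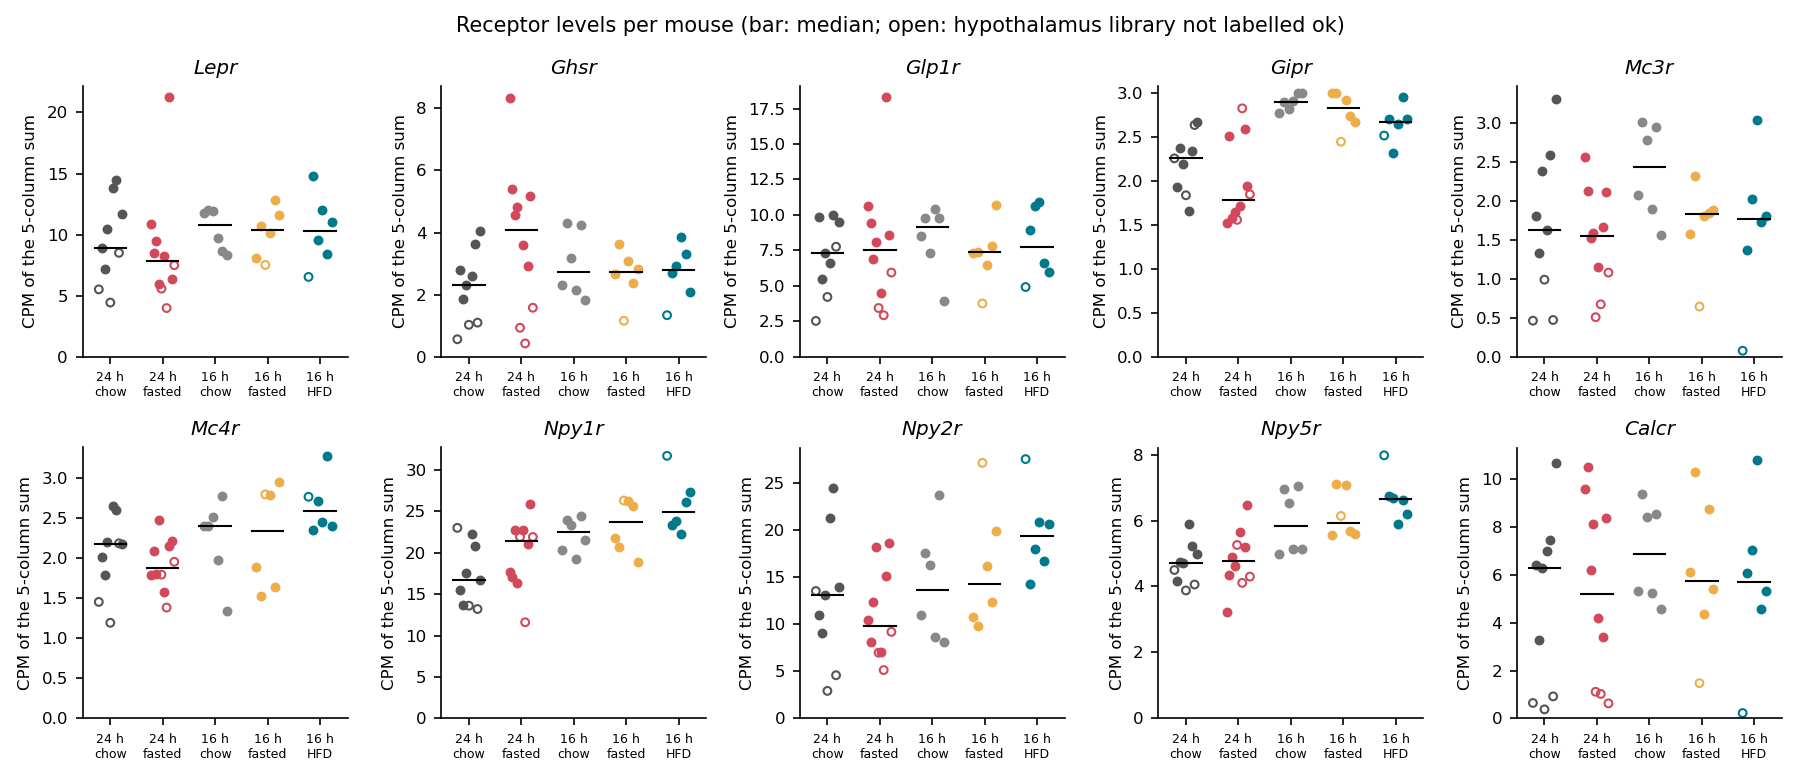
CPM of the 5-column sum of each mouse (vertical axis) by study and diet for the 10 receptors, with a bar at the group median. Open circles are the 8 mice whose hypothalamus library was not labelled ok, which sit below all other mice for Calcr (0.221 to 1.47 CPM), Ghsr (0.431 to 1.58 CPM) and Mc3r (0.0779 to 1.08 CPM).

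**Figure D3:**
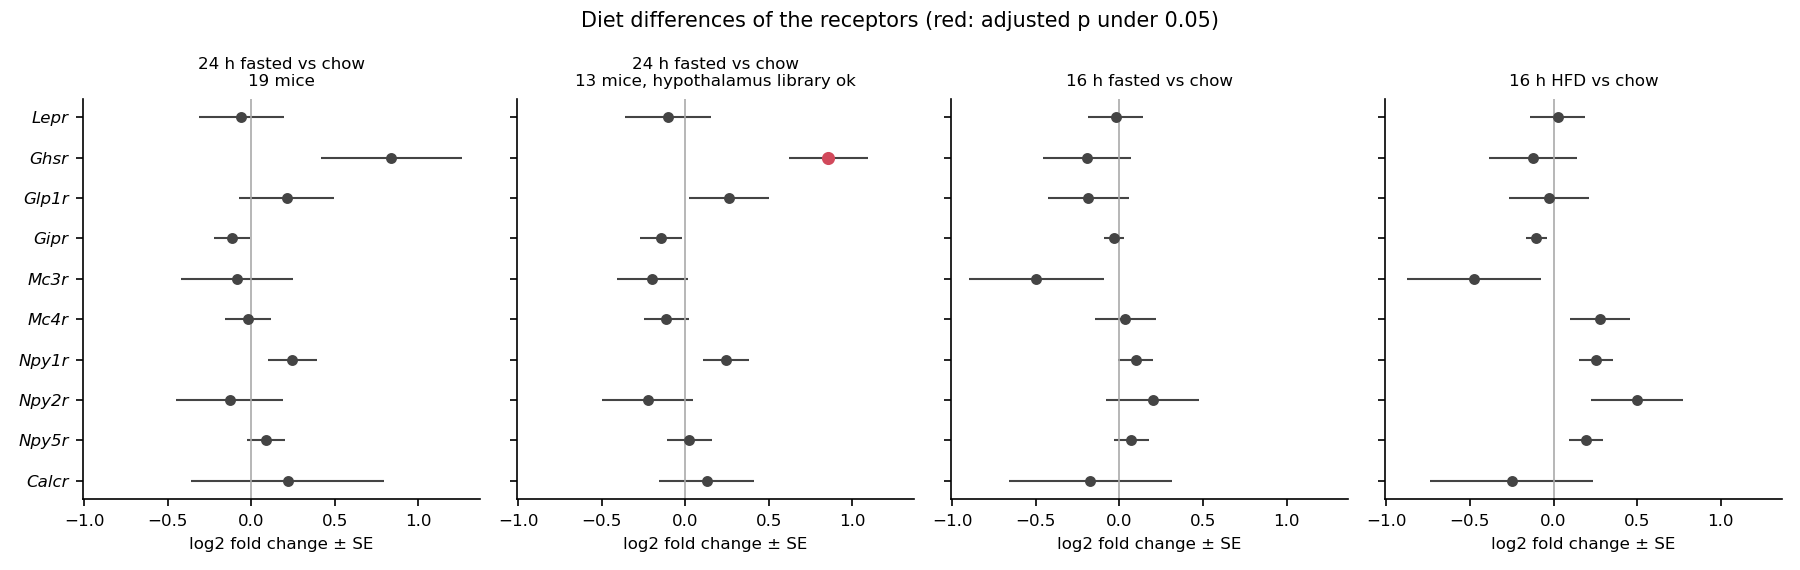
Log2 fold change ± SE (horizontal axis) of each receptor in edgeR's quasi-likelihood test, for fasted against chow at 24 h in all 19 mice and in the 13 mice with the hypothalamus library ok, and for fasted and HFD against chow at 16 h. The red point, Ghsr at 0.86 in the 13 mice, is the only one with an adjusted p under 0.05.

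Ghsr, the receptor of ghrelin, was higher after 24 h of fasting once mice without a sound hypothalamus library were set aside. Over all mice, Ghsr stood at 0.565, 2.30 and 4.05 CPM (lowest, median and highest) on chow and at 0.431, 4.07 and 8.32 CPM in fasted mice. The groups overlapped, and the log2 fold change of 0.84 ± 0.42 (SE, n = 9 and 10 mice) did not pass (edgeR adjusted p = 0.234). With equal weight for each column it was 0.33 (adjusted p = 0.739). The lowest values of both groups came from the 6 mice whose hypothalamus library was not ok.

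Among the 13 mice with that library ok, Ghsr was 1.87, 2.7 and 4.05 CPM on chow (6 mice) and 2.91, 4.82 and 8.32 CPM in fasted mice (7 mice). The fold change was 1.81 (log2 0.86 ± 0.24 SE) and passed (edgeR adjusted p = 0.0343), in a fit where 9.48% of 29251 genes passed. Of 10 receptors, Ghsr was the only member called there, a share near that of all genes. Leaving out single mice kept the log2 fold change between 0.67 and 0.96, and the adjusted p ran from 0.0127 to 0.0684. It passed without 7 of the 13 mice and missed the threshold without chow mouse 1423, 1431, 1432 or 1442 or fasted mouse 1424 or 1433.

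The amount of hypothalamus in the sum varied between these mice and was taken into account in a further fit, chosen after the data had been seen. With the log2 level of the hypothalamus factors as a covariate, the log2 fold change of Ghsr was 0.77 ± 0.12 (SE, n = 6 and 7, edgeR adjusted p = 0.00205). In that fit 9.66% of genes passed, and Ghsr was again the only receptor of the 10, a share near that of all genes. Applied to all 19 mice, the fit that had been planned, the covariate gave 0.49 ± 0.29 (edgeR adjusted p = 0.318). Without the covariate, 0 of the 10 hypothalamus factors passed between diets in the 13 mice (lowest edgeR adjusted p = 0.41, and 0 at an unadjusted p under 0.05). With it, 1 factor passed (adjusted p = 0.0317) and 3 had an unadjusted p under 0.05.

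Per 100 counts of the hypothalamus factors, the 13 mice held 5.2, 7.03 and 9.90 counts of Ghsr on chow and 9.83, 11.3 and 12.2 in fasted mice. The fasted value exceeded the chow value in 41 of 42 pairs of mice. The ratio of the geometric means was 1.62 (two-sided exact permutation test over mice, p = 0.00233, adjusted over 3 comparisons 0.00699). At 16 h the same quantity was 6.16, 7.47 and 8.40 on chow. In the 5 fasted mice it was 5.48, 8.14 and 12.1, and on HFD it was 6.20, 8.36 and 12.2. Neither 16 h diet differed from chow (exact permutation test, p = 0.519 and 0.506, adjusted p = 0.519 for both). This ratio, and Ghsr as the only receptor of the 10 tested by it, were chosen after the values of Ghsr had been seen. The adjustment over 3 comparisons does not cover these choices, so the p-values describe the difference and do not add support to it.

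The highest column of a mouse showed the same order without a sum. In the 13 mice it was 7.55 to 9.39 CPM of Ghsr on chow and 12.3 to 17.7 CPM in fasted mice, and these ranges did not overlap. At 16 h it was 6.87 to 11.0 CPM on chow, 7.59 to 10.2 CPM in fasted mice and 8.39 to 10.1 CPM on HFD. Ghsr was 1 of the 10 receptors whose highest columns did not overlap between diets at 24 h, against 3.17% of the genes tested. Because the column was picked by its value, this is a description without a test.

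**Figure D4:**
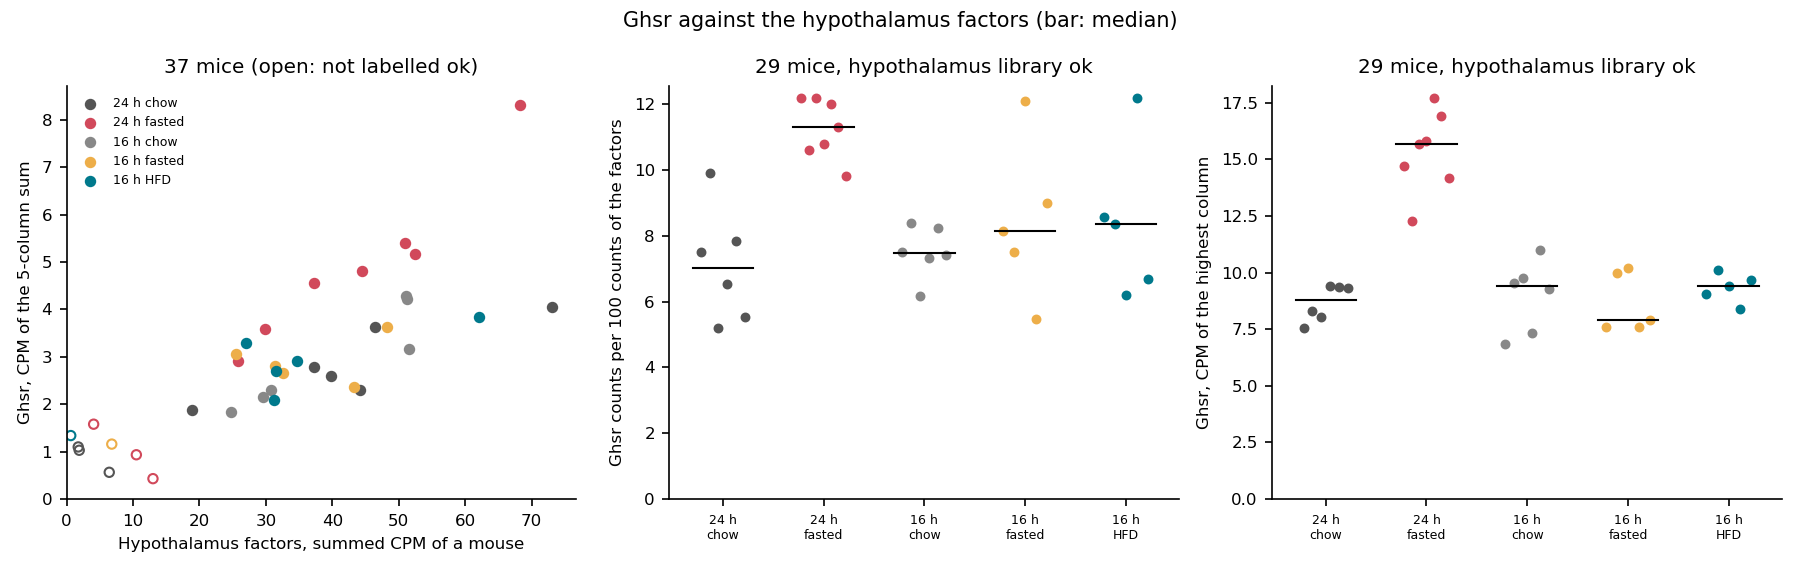
Left, Ghsr (CPM of the 5-column sum) against the summed CPM of 10 hypothalamus factors, 1 point per mouse, open where the hypothalamus library was not labelled ok. Middle and right, the 29 mice with that library ok by study and diet, as Ghsr counts per 100 counts of the factors and as CPM of the highest column, with a bar at the median. The 7 fasted mice of the 24 h study sit at 9.83 to 12.2 in the middle and at 12.3 to 17.7 CPM on the right.

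The fasting effect on Ghsr did not pass as different between the studies. At 16 h, Ghsr was 1.83, 2.74 and 4.29 CPM on chow and 1.16, 2.73 and 3.62 CPM in fasted mice, a log2 fold change of -0.19 ± 0.26 (SE, n = 6 each, edgeR adjusted p = 0.886). The 24 h effect minus the 16 h effect was 1.03 ± 0.56 on the log2 scale (adjusted p = 0.543). In the mice with the hypothalamus library ok it was 0.92 ± 0.33 (adjusted p = 0.164), with 0 of the 10 receptors called (1 at an unadjusted p under 0.05) against 1.96% of genes. The studies also differ in sequencing run, housing, read length, choice of hemisphere, time of day at the start and 1 of the 5 regions. These cannot be told apart from the length of the fast.

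Lepr, the leptin receptor, lies at chr4:101574601-101676237 and did not pass in any comparison. At 24 h it was 4.44, 8.89 and 14.5 CPM on chow and 3.99, 7.87 and 21.3 CPM in fasted mice, a log2 fold change of -0.06 ± 0.26 (SE, edgeR adjusted p = 0.923). The highest value, 21.3 CPM, belonged to fasted mouse 1453, and without it the log2 fold change was -0.27 ± 0.22 (adjusted p = 0.477). One column of this mouse held 57585862 counts, 36.1 CPM of Lepr and 9450 CPM of the 7 choroid plexus markers (such as Ttr and Folr1). The choroid plexus, which makes cerebrospinal fluid, is known for its short forms of the leptin receptor. Over all columns, Lepr had a median of 13.4 CPM in the 7 columns with at least 1000 CPM of these markers and of 8.21 CPM in the other 151. Per mouse, the choroid plexus markers ran from 36.5 to 1787.4 CPM on chow and from 34.1 to 4141.1 CPM in fasted mice at 24 h, and their part in the Lepr values was not tested.

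At 16 h, Lepr was 8.32, 10.8 and 12.0 CPM on chow, 7.52, 10.4 and 12.8 CPM in fasted mice and 6.54, 10.3 and 14.8 CPM on HFD. The ranges overlapped, and that on HFD was the widest. The log2 fold changes were -0.02 ± 0.16 for fasting and 0.02 ± 0.16 for HFD (adjusted p = 0.982 and 0.973), and both comparisons share the chow mice.

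Glp1r, the receptor of the gut hormone GLP-1, gave no diet difference that passed. At 24 h it was 2.53, 7.30 and 10.0 CPM on chow and 2.93, 7.50 and 18.3 CPM in fasted mice (log2 0.21 ± 0.28 SE, edgeR adjusted p = 0.719). The 18.3 CPM again came from mouse 1453, whose column with the choroid plexus markers held 31.6 CPM of Glp1r. A chow column with 8610 CPM of the same markers held 30.4 CPM of Lepr and 1.18 CPM of Glp1r, so high values of both receptors did not occur together there. Without mouse 1453 the log2 fold change of Glp1r was 0.02 ± 0.26 (adjusted p = 0.983). At 16 h the medians were 9.15 CPM on chow, 7.36 CPM in fasted mice and 7.77 CPM on HFD, with log2 fold changes of -0.19 ± 0.24 and -0.03 ± 0.24 (adjusted p = 0.88 and 0.979).

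Gipr, the receptor of the other incretin, GIP, varied little between mice at 16 h. Its level was 2.78 to 3.00 CPM on chow, 2.45 to 3.01 CPM in fasted mice and 2.32 to 2.96 CPM on HFD. At 24 h it was 1.66, 2.26 and 2.67 CPM on chow and 1.52, 1.79 and 2.83 CPM in fasted mice (log2 -0.12 ± 0.11 SE, edgeR adjusted p = 0.581). The ranges overlapped in both studies, and Gipr had 135 to 406 counts per mouse.

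The melanocortin receptors bind peptides cut from POMC, which activate them, and AgRP, which opposes that. Mc3r (chr2:172090412-172093034, a gene of a single exon) was 0.463, 1.62 and 3.31 CPM on chow and 0.508, 1.55 and 2.56 CPM in fasted mice at 24 h (log2 -0.08 ± 0.34 SE, edgeR adjusted p = 0.918). At 16 h it was 1.56, 2.43 and 3.01 CPM on chow, 0.644, 1.82 and 2.32 CPM in fasted mice and 0.0779, 1.77 and 3.03 CPM on HFD. These are log2 fold changes of -0.50 ± 0.40 and -0.47 ± 0.40 (adjusted p = 0.797 and 0.704). The lowest value, 6 counts, came from HFD mouse 13, whose library failed in principal components and whose highest column held 1.03 CPM of the hypothalamus factors.

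Mc4r, whose loss causes obesity in mice and people, shared the highest column of the hypothalamus factors in few mice. At 24 h it was 1.19, 2.17 and 2.65 CPM on chow and 1.38, 1.87 and 2.47 CPM in fasted mice (log2 -0.02 ± 0.14 SE, edgeR adjusted p = 0.952). At 16 h the medians were 2.39 CPM on chow, 2.33 CPM in fasted mice and 2.58 CPM on HFD. The log2 fold change on HFD was 0.28 ± 0.18 (adjusted p = 0.607) and the ranges overlapped. Mc4r and Npy2r had the same highest column in 27 of 37 mice, while Mc3r and Calcr did in 34.

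The NPY receptors inhibit the cells that carry them through Gi proteins. Npy1r and Npy5r, both tied to the feeding action of NPY, are neighbours on chromosome 8, read in opposite directions with 8145 bases between them. Npy1r was 13.2, 16.7 and 23.0 CPM on chow and 11.6, 21.4 and 25.9 CPM in fasted mice at 24 h. The log2 fold change of 0.25 ± 0.15 did not pass (edgeR adjusted p = 0.324). On HFD at 16 h, Npy1r was 22.2, 25.0 and 31.7 CPM against 19.2, 22.4 and 24.4 CPM on chow (log2 0.25 ± 0.10 SE, unadjusted p = 0.0231, adjusted p = 0.503). In fasted mice of the 16 h study Npy1r was 18.9, 23.7 and 26.3 CPM, overlapping both groups.

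Npy5r was 3.88, 4.71 and 5.90 CPM on chow and 3.23, 4.76 and 6.48 CPM in fasted mice at 24 h (log2 0.09 ± 0.11 SE, edgeR adjusted p = 0.703). At 16 h its medians were 5.85 CPM on chow, 5.92 CPM in fasted mice and 6.65 CPM on HFD (log2 0.19 ± 0.10 for HFD, adjusted p = 0.539). Npy1r and Npy5r shared their highest column in 19 of 37 mice.

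Npy2r, which also binds PYY from the gut, varied most between mice among the NPY receptors. It was 2.91, 13.1 and 24.4 CPM on chow and 5.12, 9.78 and 18.6 CPM in fasted mice at 24 h (log2 -0.13 ± 0.32 SE, edgeR adjusted p = 0.859). On HFD at 16 h it was 14.3, 19.3 and 27.5 CPM, against 8.12, 13.7 and 23.7 CPM on chow and 9.81, 14.2 and 27.1 CPM in fasted mice. The log2 fold change on HFD, 0.50 ± 0.28, was the largest rise of the 10 receptors at 16 h in the fit of all mice and did not pass (adjusted p = 0.552).

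Calcr, the calcitonin receptor and the core of the amylin receptor, lies at chr6:3685680-3764714 and separated the mice by the hypothalamus label. An antisense gene overlaps it, as antisense genes (Gm50252 and Gm10503) overlap Glp1r, and without the strand used in counting their reads cannot be told apart. Calcr was 3.27 to 10.8 CPM in the 29 mice with the library ok and 0.221 to 1.47 CPM in the other 8. At 24 h it was 0.374, 6.28 and 10.7 CPM on chow and 0.625, 5.21 and 10.5 CPM in fasted mice (log2 0.22 ± 0.58 SE, edgeR adjusted p = 0.871). In the 13 mice with the library ok the log2 fold change was 0.13 ± 0.29 (adjusted p = 0.833). Per 100 counts of the hypothalamus factors, Calcr was 14.2 to 17.6 on chow and 13.2 to 20.5 in the fasted mice at 24 h, where Ghsr had nearly separated the same mice.

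Among the ligands of these receptors, 6 of 12 were expressed enough to be tested, and 1 passed at 24 h, where 11.4% of all genes did. Agrp, the melanocortin antagonist made beside NPY in arcuate neurons, was 1.31, 1.93 and 2.82 CPM on chow and 1.52, 2.89 and 6.31 CPM in fasted mice (fold 1.63, log2 0.70 ± 0.22 SE, edgeR adjusted p = 0.0388). The Agrp call was lost with equal weight for each column (log2 0.10, adjusted p = 0.931), without columns of low counts (adjusted p = 0.189) and, narrowly, in 3 other alternatives (adjusted p from 0.0502 to 0.0512). In the 13 mice with the hypothalamus library ok, Agrp rose 1.74-fold (adjusted p = 0.0198) and Npy, a gene outside the naming rule, rose 1.54-fold (adjusted p = 0.0332). At 16 h, 0 of 6 ligands passed in each comparison (0 at an unadjusted p under 0.05). The median log2 fold change of the ligands at 24 h was 0.28.

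Of 20 partners and signalling genes of the receptors, all tested, 5 rose and 0 fell at 24 h, against 11.4% of all genes in either direction, and with equal weight for each column 3 rose. Ptpn11, which encodes the phosphatase SHP2 that acts in leptin signalling, rose from 173.7 to 244.0 CPM on chow to 259.7 to 328.0 CPM in fasted mice. The fold was 1.43 (log2 0.51 ± 0.06 SE, edgeR adjusted p = 1.25e-05). Irs2, an adaptor of insulin and leptin signals, rose 1.33-fold (adjusted p = 0.00847), and Ramp2, a partner of calcitonin family receptors, rose 1.27-fold (adjusted p = 0.012). Stat3 and Ptpn1, outside the naming rule, made up the 5. The median log2 fold change of the list was 0.03.

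Of 28 other receptors of appetite signals, 24 were tested at 24 h, 3 rose and 0 fell, a share near the 11.4% of all genes. Adipor2, a receptor of the fat hormone adiponectin, was 43.9, 58.5 and 65.2 CPM on chow and 84.3, 120.1 and 139.3 CPM in fasted mice (fold 2.11, log2 1.08 ± 0.10 SE, edgeR adjusted p = 3.77e-07). Insr, the insulin receptor, rose 1.17-fold (adjusted p = 0.000592) and did not pass with equal weight for each column (adjusted p = 0.559), nor did Mchr1 (adjusted p = 0.164). Mchr1, the receptor of melanin-concentrating hormone, rose 1.66-fold (adjusted p = 0.0457), but without fasted mouse 1445, which held 27.0 CPM, the log2 fold change was 0.41 in place of 0.73 (adjusted p = 0.0107). The median log2 fold change of these receptors was 0.06. Ptpn11, Irs2, Adipor2 and Insr also differed in their fasting effect between the studies (adjusted p = 0.000678, 0.0351, 0.000118 and 0.0151). At 16 h, 0 of the 20 partners and 0 of the 25 other receptors tested passed in each comparison. At an unadjusted p under 0.05 there were 1, 2 and 5 partners and 0, 1 and 1 other receptors for fasted against chow, HFD against chow and fasted against HFD.

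Markers of the meninges had a lower median in fasted mice at 24 h, with overlapping ranges. The 8 meningeal markers (such as Col1a1 and Dcn) summed to 48.3, 147.8 and 244.0 CPM on chow and 47.4, 84.1 and 115.3 CPM in fasted mice. The choroid plexus markers had medians of 84.2 CPM on chow and 57.3 CPM in fasted mice (143.1 and 48.4 CPM in the mice with the hypothalamus library ok), and the 6 midbrain factors of 59.1 and 43.8 CPM. These medians were not the same in both diets, a difference that was not tested, so the make-up of the sums may have differed. Other marker lists were summed and are not reported here, and the lists did not all move in the same direction. The 10 hypothalamus factors were 18.9, 42.0 and 73.1 CPM on chow and 25.8, 44.5 and 68.3 CPM in fasted mice among the 13 with that library ok. Of these lists, only the hypothalamus factors were entered as a covariate, and the part of the others was not tested.

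Across columns, the gene most like each receptor was sought among 17979 genes by the lower Pearson r of log2 CPM over the 86 columns of the 16 h study and the 72 of the 24 h study. Columns share mice, regions and depth, so the r values are descriptions. Calcr was most like Arhgap36 (r = 0.954 at 16 h and 0.94 at 24 h) and Asb4 (0.962 and 0.929). Mc3r was most like Gabre (0.943 and 0.9) and Sdc2 (0.918 and 0.876). For Ghsr the nearest were Gm56582 (0.831 and 0.857) and Arl10 (0.822 and 0.826), and for Glp1r Kcnj5 (0.853 and 0.806) and Npffr1 (0.789 and 0.807).

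The receptors spread over several columns had other neighbours. Npy2r was most like Pcdh20 (0.878 and 0.876) and Sec24d (0.926 and 0.871), and Mc4r Mdga1 (0.861 and 0.897) and Slit1 (0.862 and 0.812). Npy1r was most like its neighbour on the genome, Npy5r (0.717 and 0.737), followed by Nova2 (0.831 and 0.699). Npy5r was most like Gm20371 (0.815 and 0.751) and Gm44240 (0.839 and 0.747), and Lepr Arhgap28 (0.794 and 0.815) and Bmp7 (0.794 and 0.781). Gipr had the weakest likeness, with Myo18a at 0.653 and 0.839 and Zmiz2 at 0.55 and 0.589.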

How the data were processed

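The authors prepared directional libraries after rRNA depletion, sequenced paired reads and counted them per gene with STAR 2.7.3a on GRCm39. They deposited raw counts. The strand column and the annotation release are not given in the sources used here. Counts were summed over the 5 columns of a mouse, without assigning columns to regions. Of 57010 genes, 56310 had a symbol in GENCODE vM39. Mice at 16 h shared cages, so sums per cage were an alternative.

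The quasi-likelihood test of edgeR 4.0.16 under R 4.3.3 compared diets after filterByExpr and TMM, and p-values were adjusted by Benjamini-Hochberg over all genes tested, with 1 fit of 3 diets at 16 h, 1 fit at 24 h, and 1 fit of all 37 mice for the difference between fasting effects. Standard errors are the log2 fold change over the root of F. The scripts were tested on simulated counts. Alternatives used DESeq2 1.42.0, limma 3.58.1, other filters, columns, mice and covariates. Single values were tested by exact permutation in scipy 1.17.1. The members and lists were chosen with earlier results of these data known. From each of 3 lists, up to 3 called genes that rose and 3 that fell most were named per comparison, and 2 genes most alike per receptor, among genes whose average log2 CPM (prior count 2) reached 0 in both studies and that do not overlap the receptor.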

Additional observations from a re-analysis of the deposited data

Results flagged for a closer look

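In 2 of 50 groups of mice, 1 per receptor, study and diet, a mouse stood far from the others of its group, where chance gives about 1 in 20. Both are fasted mouse 1453 of the 24 h study. Its Lepr level was 21.3 CPM, with the next mouse at 10.9 CPM, and its Glp1r level was 18.3 CPM, with the next at 10.6 CPM. The column with both values also held 9450 CPM of the choroid plexus markers.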

How the results depend on the processing

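The groups share no replicate numbers. With the round of cages, shared by the 16 h groups, as a term, 0 receptors were called. In these alternatives the receptors stayed uncalled except Ghsr at 24 h. There, 1 receptor, Ghsr, was called in the mice with the hypothalamus library ok (log2 0.86), where 9.48% of all genes passed. Leaving out 1 of all mice at a time gave 0 calls. In the mice with that library ok, Ghsr was also called with the hypothalamus factors as a covariate (0.77), a fit chosen after seeing the data. Mc3r, Calcr and Ghsr had as few as 6, 17 and 25 counts in single mice, all of them mice whose hypothalamus library was not ok. Calls over all genes ranged at 24 h from 837 with equal weight per column to 4213 with DESeq2 (3307 as reported), and DESeq2 called 19, 5 and 354 genes at 16 h for fasted against chow, HFD against chow and fasted against HFD (0, 0 and 65 as reported). The 65 became 26 without a filter on low counts and 0 with equal weight per column, in sums per cage and in the mice with the hypothalamus library ok, and without 1 mouse at a time they ranged from 0 (without fasted mouse 11) to 101, with 2 without HFD mouse 18. Agrp and Mchr1 each lost the call without any 1 of 12 of the 19 mice. Ramp2 (adjusted p = 0.0501) and Mchr1 (0.0502) missed it in the mice with the hypothalamus library ok, where 2 ligands passed in place of 1.

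Of 420 further fits of uncalled log2 fold changes, 35 turned sign, and the cause was not tested. With equal weight per column, which moves the median of all genes by -0.254 for fasted against chow and -0.255 for fasted against HFD at 16 h, they were Glp1r -0.18 and Mc4r 0.02 at 24 h, Mc4r -0.19, Npy1r -0.07, Npy2r -0.44 and Npy5r -0.51 for fasted against chow at 16 h, Lepr -0.05, Ghsr 0.22 and Glp1r 0.21 on HFD, and Gipr -0.36 and Mc3r 0.02 for fasted against HFD. In the mice with the hypothalamus library ok, they were Lepr 0.04, Mc4r -0.05, Npy2r -0.04 and Calcr 0.03 for fasted against chow at 16 h, Ghsr 0.01 and Glp1r 0.07 on HFD, and Npy5r -0.02 for the difference of fasting effects. With the covariate they were Calcr -0.19 at 24 h, Lepr 0.04 and Calcr 0.12 for fasted against chow at 16 h, Ghsr 0.12, Glp1r 0.14 and Calcr 0.09 on HFD, and Calcr -0.28 for the difference of fasting effects. With the covariate in the mice with that library ok, an alternative chosen after seeing the data, they were Lepr 0.07, Ghsr 0.08, Mc4r -0.06 and Calcr 0.14 for fasted against chow at 16 h, and Ghsr 0.11, Glp1r 0.11 and Calcr 0.09 on HFD. Lepr was 0.01 at 24 h without mice 1423, 1454 and 1455, left out because of the exchanged samples. Mc4r was -0.01 in sums per cage for fasted against chow at 16 h, and Mc3r was 0.05 with the round of cages for fasted against HFD.

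Leaving out 1 mouse at a time turned the sign in 45 of 550 fits, in 15 pairs of receptor and comparison, all uncalled. The ranges were -0.27 to 0.06 for Lepr, -0.21 to 0.08 for Mc3r, -0.09 to 0.07 for Mc4r and -0.26 to 0.04 for Npy2r at 24 h. For fasted against chow at 16 h they were -0.10 to 0.04 for Lepr, -0.07 to 0.12 for Mc4r, -0.04 to 0.40 for Npy2r and -0.39 to 0.02 for Calcr. On HFD they were -0.10 to 0.12 for Lepr, -0.25 to 0.01 for Ghsr and -0.17 to 0.08 for Glp1r, and for fasted against HFD -0.15 to 0.07 for Lepr, -0.20 to 0.08 for Ghsr, -0.27 to 0.23 for Mc3r and -0.17 to 0.36 for Calcr. The mean of the 5 columns moved 1 of 50 group medians by more than 1 SD, Gipr in the fasted mice at 16 h (2.57 CPM).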

Other observations

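In the 13 mice of the 24 h study with the hypothalamus library ok, 2 receptors of neuropeptides that were not called in the fit of all mice fell with fasting, both named after their values were seen. In this fit 9.48% of 29251 genes passed in either direction. Cckbr, a receptor of cholecystokinin and gastrin, was 11.1, 13.0 and 15.2 CPM on chow and 5.90, 7.95 and 12.6 CPM in fasted mice (fold 0.691, edgeR adjusted p = 0.0292). Hcrtr2, an orexin receptor, was 5.88, 6.84 and 7.31 CPM on chow and 3.95, 4.67 and 6.41 CPM in fasted mice (fold 0.755, adjusted p = 0.0298). Both groups overlap in both genes.

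The label of the hypothalamus library and the columns did not match in all of the 8 mice. Chow mouse 1422 and fasted mouse 1445, both marked as failing in alignment, each had a column with 87.0 and 98.6 CPM of the hypothalamus factors, close to the lowest value of 102 CPM among the 29 mice labelled ok. The Ghsr level of the highest column was 1.10 CPM in mouse 1422 and 2.62 CPM in mouse 1445, below the 6.87 CPM that was the lowest among the 29.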
